A study of Xenopus tropicalis with 12 samples.

Results

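Collagens are the structural proteins of the extracellular matrix. The genes of their α chains were followed in the liver of wild-type *Xenopus tropicalis*, a frog whose tadpole organs are remodelled by thyroid hormone. Members were chosen by symbol alone, as every gene named col followed by a number, the letter a and a number. This rule, set with earlier results of these data known, found 40 of the 26529 genes in the table, or 0.151%. By protein family they were 10 fibrillar chains, 4 chains of the basement membrane collagen IV, 5 chains of collagen VI and 21 other chains.

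The study compared 4 groups of 3 livers. Untreated tadpoles were taken at Nieuwkoop-Faber stage 54 (st54, before metamorphosis), at stage 61 (st61, the climax) and at stage 66 (st66, its end). The T3 group consisted of stage 54 tadpoles kept in 10 nM triiodothyronine, the active thyroid hormone, for 18 h. All tadpoles were wild type and, per the labels, came from the same parents, and the libraries of a group came from different tadpoles.

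Each collagen molecule is a triple helix of 3 α chains, which can be alike or different. Collagens I, III and V form the banded fibrils of connective tissue, collagen IV forms the network of basement membranes, and collagen VI forms beaded microfibrils around cells. In mammalian liver the fibrillar chains come mainly from stellate cells and portal fibroblasts, and hepatocytes contribute little. The chains are hydroxylated and folded in the endoplasmic reticulum, trimmed after secretion and cross-linked by lysyl oxidases.

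Libraries held between 7928459 and 39536147 counts, so that a count of 3 was worth 0.0759 to 0.378 counts per 1000000 counts of the library (CPM). Hepatocyte genes (alb, tf, apoa1, fgb and serpina1) summed to between 27649.8 and 48032.5 CPM in every library, so the genes of the labelled tissue were abundant throughout. The T3 libraries lay far closer to each other than those of any other group: the coefficient of variation of a typical gene beyond counting error was 2.57% in T3 against 33.7% at st54, 23.9% at st61 and 40.2% at st66. Fits to all 12 libraries share 1 estimate of the spread, so calls that lean on the T3 libraries are also given with these 3 summed into 1. The labels describe different tadpoles, but whether RNA was pooled in the T3 group is not stated. With pooled RNA, the T3 libraries would add only technical spread to an estimate shared with the other groups. At st66, replicate 1 often lay near the st61 livers by plain CPM, and replicates 2 and 3 lower. The scaling factors of the test (trimmed mean of M-values, TMM) were 1.14, 0.747 and 0.785 for st66 replicates 1 to 3. Plain CPM of st66 replicate 1 therefore lie above its scaled levels, and those of replicates 2 and 3 below theirs. Muscle genes summed to 419.6 CPM in st66 replicate 3 and to at most 30.4 CPM elsewhere.

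At stage 61 the summed transcripts of each of the 4 collagen classes stood above stage 54, at 2.76 to 5.32 times its mean. Of the 31 chains with enough counts to be tested, 20 rose at an adjusted p under 0.05 (edgeR quasi-likelihood test, adjusted by the Benjamini-Hochberg method over 15102 genes), against 10.0% of all genes tested. None fell: the count was 0 with edgeR, also at an unadjusted p under 0.05, and 0 with DESeq2, where 8.85% of all genes fell. The median log2 change of the 31 chains was 2.21, and that of all genes was -0.03. By plain CPM, 21 of the 31 had every st61 liver above every st54 liver, against 15.7% of all genes, and 0 had the reverse, against 20.6%. All 4 chains of collagen IV and all 5 of collagen VI rose, together with 6 of 9 tested fibrillar chains and 5 of 13 tested others. In data simulated for this comparison, with 200 changed genes of a mean above 1 CPM, 19% of 2-fold and 81% of 4-fold changes were called. The real comparison called 1516 genes higher and 1337 lower. As the adjustment depends on how many genes change, these shares describe the simulated setting and not rare chains. In bulk tissue, more cells of a type and more RNA per cell cannot be told apart.

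The fibrillar chains held the most abundant transcripts. Levels between genes were compared as CPM per kilobase of exon, on which scale col1a1 averaged 26.0 at st54, 122 at st61, 71.0 at st66 and 14.6 in T3. The gene col3a1 averaged 23.3, 106, 95.7 and 20.4 on the same scale, and col1a2 averaged 18.4, 80.8, 48.3 and 10.4. These 3 chains took the first 3 places in each group, with col3a1 ahead of col1a1 at st66 and in T3. At st54 their order lay within the spread between livers.

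The gene col1a1 (chromosome 10, 18236515 to 18262669) encodes the α1 chain of collagen I, which occurs as a pair beside 1 α2 chain in each molecule. It stood at 150.4, 48.7 and 244 CPM in the st54 livers, 488, 927 and 662 at st61, 469, 246 and 497 at st66, and 86.7, 80.7 and 80.8 in T3. Every st61 liver lay above every st54 liver, and the fold was 4.79 (log2 2.26 ± 0.48 SE, adjusted p = 0.00693). The partner chain col1a2 (chromosome 6, 32946509 to 32982130) stood at 96.7, 39.4 and 135 CPM at st54, 278, 544 and 367 at st61, 269, 144 and 297 at st66, and 54.1, 49.3 and 49.4 in T3. Its st61 and st54 livers did not overlap either, with a fold of 4.49 (log2 2.17 ± 0.41 SE, adjusted p = 0.00372). In both genes st54 replicate 2 was the lowest of the untreated livers and st61 replicate 2 the highest.

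Collagen III, a homotrimer that shares fibrils with collagen I, is encoded by col3a1 (chromosome 9, 48129571 to 48189114). Its levels were 152, 108 and 107 CPM at st54, 469, 835 and 360.4 at st61, 686, 327 and 497 at st66, and 116, 104 and 103 in T3. The st54 and T3 livers formed a low range that overlapped, and the st61 and st66 livers a high one. The rise at st61 was 4.63-fold (log2 2.21 ± 0.29 SE, adjusted p = 0.000379).

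Collagen V is a minor chain set that starts fibril assembly. Its main chain col5a1 stood at 49.7, 33.7 and 43.6 CPM at st54, 140.0, 262 and 142 at st61, 162, 53.6 and 66.1 at st66, and 52.1, 50.1 and 46.6 in T3. The gene col5a2, which lies 11071 bases from col3a1 on the opposite strand, stood at 24.3, 19.7 and 29.8 CPM at st54, 76.5, 142 and 79.8 at st61, 83.5, 31.3 and 40.8 at st66, and 28.1, 26.4 and 25.4 in T3. Both rose at st61 without overlap, by 4.38-fold for col5a1 (adjusted p = 0.000549) and 4.13-fold for col5a2 (adjusted p = 0.00037). The third chain, col5a3, was low and uneven, at 3.17, 0.681 and 3.61 CPM at st54, 0.844, 3.42 and 7.94 at st61, 1.82, 0.378 and 1.18 at st66, and 0.658, 0.788 and 0.542 in T3. It did not pass the test at st61 (adjusted p = 0.510).

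The remaining fibrillar chains were scarce. The gene col24a1 stood at 1.33, 1.53 and 2.08 CPM at st54, 3.59, 3.85 and 3.11 at st61, 2.17, 1.64 and 2.23 at st66, and 1.92, 1.64 and 1.95 in T3. Its st61 livers stood apart, 2.22-fold above st54 (adjusted p = 0.00875). The gene col27a1 stood at 5.06, 6.13 and 14.8 CPM at st54, 9.07, 11.8 and 10.3 at st61, 8.78, 4.16 and 4.82 at st66, and 8.73, 9.10 and 6.94 in T3, and it was called in no comparison. Chains of cartilage fibrils were near the floor: col11a2 stayed below 2 CPM in every liver, and col2a1, the main collagen of cartilage, was too low to test. Of the col2a1 reads, 22 came from st66 replicate 3, where the level was 2.59 CPM, and the level was at most 0.401 CPM in each other liver.

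**Figure D1:**
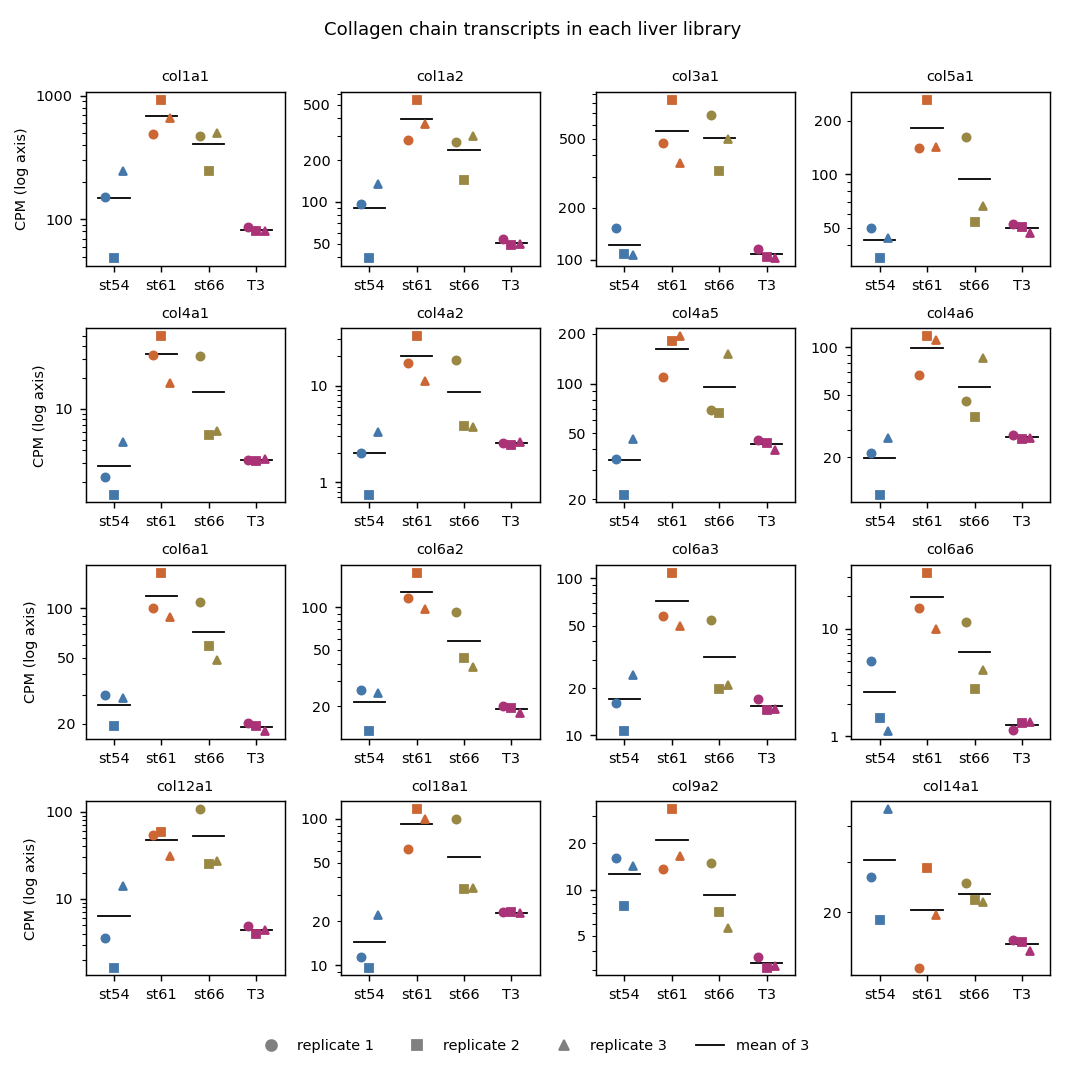
Level of 16 collagen chains in each liver library, in CPM on log axes, at st54, st61, st66 and in T3. Symbols mark replicates 1 to 3 and bars the mean of 3. Most chains peak at st61, the T3 points lie close together at about the st54 level, and col9a2 is lowest in T3.

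The basement membrane chains rose at st61 as 2 gene pairs of unlike level. Collagen IV chains are encoded in head-to-head pairs, and col4a1 with col4a2 encodes the form found in nearly all basement membranes. The gene col4a1 (chromosome 2, 117308323 to 117410626) stood at 2.19, 1.497 and 4.81 CPM at st54, 32.8, 49.95 and 17.8 at st61, 32.0, 5.55 and 6.11 at st66, and 3.21, 3.18 and 3.33 in T3. The gene col4a2 (chromosome 2, 117190555 to 117313485) stood at 2.02, 0.749 and 3.28 CPM at st54, 17.0, 32.2 and 11.1 at st61, 18.4, 3.78 and 3.76 at st66, and 2.58, 2.46 and 2.60 in T3. In both genes the st61 and st54 livers were apart, with rises of 12.6-fold for col4a1 (log2 3.65 ± 0.60 SE, adjusted p = 0.00158) and 10.6-fold for col4a2 (log2 3.41 ± 0.60 SE, adjusted p = 0.00246). The 2 genes run in opposite directions and their spans overlap by 5163 bases, but no exon base is shared in the deposited annotation.

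The other pair, col4a5 and col4a6, was more abundant. The gene col4a5 (chromosome 8, 50870950 to 50965320) stood at 35.1, 21.3 and 46.4 CPM at st54, 109, 182 and 193 at st61, 69.1, 66.0 and 151 at st66, and 45.5, 43.9 and 39.6 in T3. The gene col4a6 (chromosome 8, 50728479 to 50870050), 899 bases away on the other strand, stood at 21.2, 11.6 and 26.4 CPM at st54, 66.8, 118 and 112 at st61, 45.4, 36.1 and 85.8 at st66, and 27.9, 26.1 and 26.4 in T3. Both were higher in each st61 liver than in any st54 liver, by 4.84-fold for col4a5 (adjusted p = 0.00285) and 5.14-fold for col4a6 (adjusted p = 0.00186). At st66 this pair was highest in replicate 3, while col4a1 and col4a2 were highest in replicate 1.

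Collagen VI is assembled from α1, α2 and one of several longer chains. The gene col6a1 (chromosome 9, 61359271 to 61397930) stood at 29.7, 19.4 and 28.5 CPM at st54, 101, 163 and 88.7 at st61, 109, 58.8 and 48.2 at st66, and 20.1, 19.5 and 18.0 in T3. Its neighbour col6a2 (chromosome 9, 61283259 to 61310142) stood at 26.2, 13.4 and 24.996 CPM at st54, 115, 174 and 96.3 at st61, 92.6, 43.5 and 37.9 at st66, and 20.03, 19.6 and 18.0 in T3. No st61 liver overlapped the st54 livers in either gene. The rises were 4.66-fold for col6a1 (log2 2.22 ± 0.25 SE, adjusted p = 0.000148) and 6.14-fold for col6a2 (log2 2.62 ± 0.30 SE, adjusted p = 0.000149).

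The long chain col6a3 stood at 16.0, 10.7 and 24.2 CPM at st54, 57.5, 108 and 49.8 at st61, 54.6, 19.8 and 20.8 at st66, and 17.0, 14.4 and 14.6 in T3, and its rise at st61 was 4.35-fold (adjusted p = 0.00187). Its alternative col6a6 stood at 5.06, 1.497 and 1.12 CPM at st54, 15.7, 32.95 and 9.98 at st61, 11.5, 2.77 and 4.11 at st66, and 1.14, 1.32 and 1.37 in T3, with a rise of 7.65-fold (adjusted p = 0.00482), or 14.8-fold without st54 replicate 1. In both the st61 livers were all above the st54 livers. The third long chain, col6a5, was rare, with 11, 2 and 1 counts at st54, 25, 51 and 18 at st61, 6, 3 and 1 at st66, and 10, 8 and 9 in T3. It was called higher at st61 (adjusted p = 0.00758), where it averaged 1.57 ± 0.760 CPM (SD, n = 3).

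Among the other chains, 3 moderately abundant ones rose. The gene col12a1 (chromosome 5, 90880285 to 91032909), which encodes a chain that sits on the surface of collagen I fibrils, stood at 3.52, 1.63 and 14.1 CPM at st54, 54.1, 57.9 and 31.01 at st61, 107, 25.4 and 27.0 at st66, and 4.83, 4.001 and 4.41 in T3. The fibril-associated chain col16a1 stood at 3.52, 0.749 and 4.09 CPM at st54, 12.6, 24.5 and 19.8 at st61, 12.8, 5.42 and 8.35 at st66, and 3.62, 3.87 and 2.60 in T3. The gene col18a1 (chromosome 9, 61517942 to 61620987), a basement membrane proteoglycan whose end fragment is endostatin, stood at 11.4, 9.63 and 22.0 CPM at st54, 62.6, 116 and 99.8 at st61, 99.0, 33.2 and 33.5 at st66, and 22.9, 22.9 and 22.7 in T3. All 3 were apart at st61 and st54, with rises of 7.93-fold for col12a1 (adjusted p = 0.0100), 7.20-fold for col16a1 (adjusted p = 0.00195) and 6.68-fold for col18a1 (adjusted p = 0.000457). Without st54 replicate 3, the liver of highest col12a1 at that stage, its fold was 19.3.

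The other 2 calls at st61 were of rare transcripts. The gene col26a1 had 4, 1 and 1 counts at st54 and 13, 51 and 41 at st61 (adjusted p = 0.00141), and col8a2, a short network-forming chain, had 1, 2 and 0 at st54 and 11, 10 and 11 at st61 (adjusted p = 0.0121). Both are given as counts because a fitted fold of so few reads depends on the prior count. A part of col8a2, 93 exon bases or 3.29%, overlaps a gene on the opposite strand, and the strand setting of the counting is not given in the sources used here.

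Not all chains followed. The fibril-associated col14a1 stood at 26.6, 18.8 and 45.9 CPM at st54 and 12.8, 28.5 and 19.5 at st61, and the ranges overlapped (log2 -0.55, adjusted p = 0.266). Per kilobase it was the 9th most abundant chain at st54 and the 18th at st61. The fibril-associated col9a2 stood at 15.9, 7.79 and 14.3 CPM at st54 and 13.6, 33.1 and 16.5 at st61, also with overlap (log2 0.77, adjusted p = 0.147). The transmembrane chain col13a1 averaged 2.62 ± 0.485 CPM at st54 and 2.07 ± 0.821 at st61 (SD, n = 3), and was called in no comparison. The gene col28a1 averaged 6.22 ± 1.72 CPM at st54 and 7.29 ± 1.20 at st61 (SD, n = 3, adjusted p = 0.583), and 19.5% of its exon bases overlap a gene on the other strand.

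The remaining members were low. The genes col19a1 and col25a1.2 reached group means of 1.15 ± 1.37 CPM at st61 and 1.24 ± 0.256 CPM in T3 (SD, n = 3), and neither was called. In all, 27 members reached a mean of 1 CPM in at least 1 group and 13 did not. The latter were col2a1, col7a1, col8a1, col8a2, col9a1, col9a3, col10a1, col11a2, col15a1, col17a1, col20a1, col21a1 and col22a1. Of the 40 members, 9 had too few counts to be tested, namely col2a1, col8a1, col9a1, col10a1, col15a1, col17a1, col20a1, col21a1 and col22a1, and none was at 0 in every library.

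**Figure D2:**
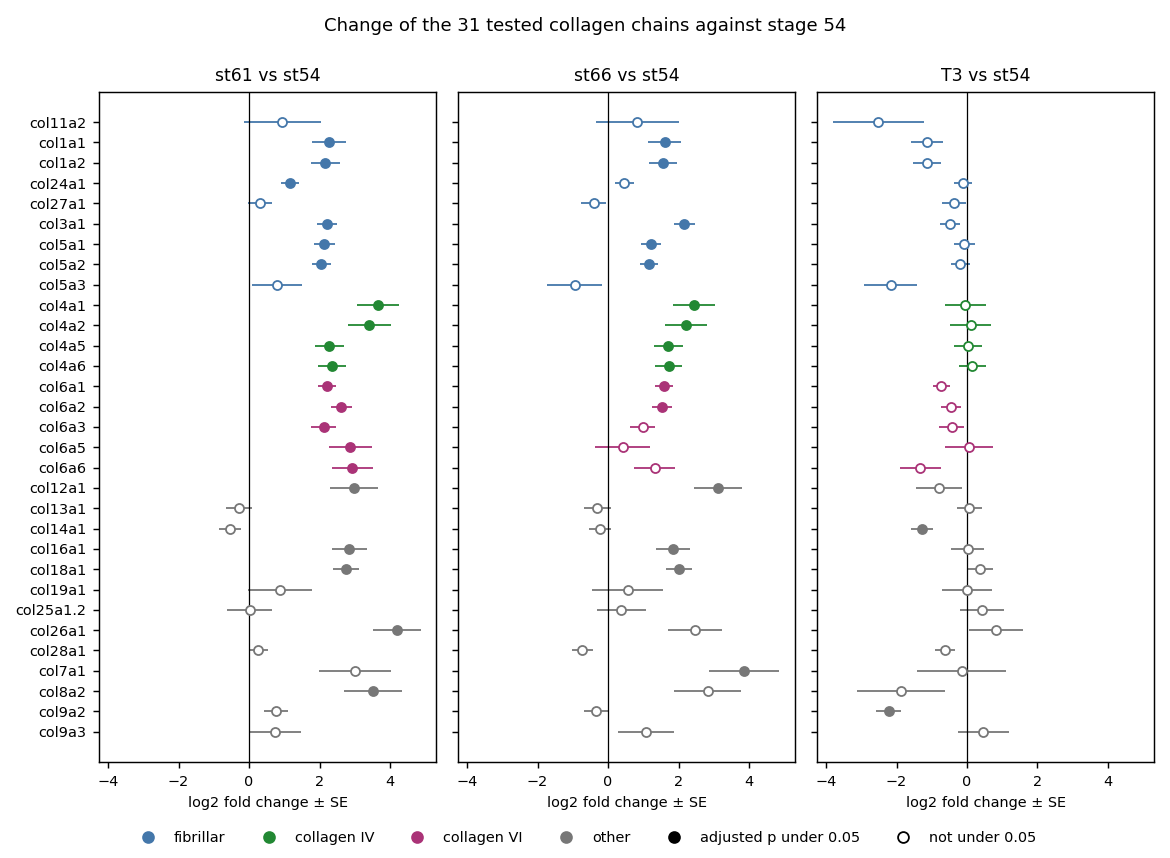
Log2 fold change ± SE of the 31 tested chains against st54, at st61, at st66 and in T3, by class. Filled points have an adjusted p under 0.05, and positions of the rare chains col6a5, col7a1, col8a2, col11a2 and col26a1 depend on the prior count. Filled points number 20 at st61 and 15 at st66, all to the right of 0, and 2 in T3, both to its left.

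By stage 66, when the tail has been lost, many chains were still above stage 54. Of the 31 tested chains, 15 were higher, against 8.23% of all genes. None was lower with edgeR (0 calls, 1 at an unadjusted p under 0.05) or DESeq2 (0), where 5.48% of all genes were. The median log2 change of the chains was 1.32, and that of all genes 0.05. By plain CPM the st66 livers were all above the st54 livers in 16 of the 31 chains (8.79% of all genes) and all below in 1 (11.1%). The 15 called were 5 fibrillar chains, all 4 of collagen IV, 2 of collagen VI and 4 others, and 14 of them had also been called at st61. The count depended on the libraries in the fit: it was 3 (col3a1, col6a1 and col18a1) in a fit to the 6 libraries compared, 5 with the T3 libraries summed into 1, 6 without st54 replicate 2 and 7 without st54 replicate 1. Without st66 replicate 3, the library with the high muscle sum, it was 10, and col1a1, col1a2, col4a5, col7a1 and col16a1 were not called.

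Of the fibrillar chains, col3a1 kept its call in the fit to the 6 libraries, and its st66 livers lay 4.49-fold above st54 (log2 2.17 ± 0.29 SE, adjusted p = 0.000709). The collagen I chains were 3.05-fold higher for col1a1 (adjusted p = 0.0421) and 2.95-fold higher for col1a2 (adjusted p = 0.0254). The call of col1a1 held in 8 of 21 alternative fits. For collagen V the folds were 2.32 for col5a1 (adjusted p = 0.0171) and 2.25 for col5a2 (adjusted p = 0.0129). In each of these 5 genes the lowest st66 liver lay above the highest st54 liver by plain CPM. The margin on that scale was wide only in col3a1, and for col1a1 it was narrow (245.6 against 244.2 CPM).

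The collagen IV chains were 5.42-fold higher for col4a1 (adjusted p = 0.0176), 4.63-fold for col4a2 (adjusted p = 0.0297), 3.27-fold for col4a5 (adjusted p = 0.0169) and 3.29-fold for col4a6 (adjusted p = 0.0139). Without st66 replicate 1 the folds were 2.80 for col4a1 (adjusted p = 0.0495) and 2.56 for col4a2 (adjusted p = 0.105), and without st54 replicate 3 that of col4a1 was 8.12. Without st66 replicate 3 the fold of col4a5 was 2.14 (adjusted p = 0.0509). With col4a1 the 2 lower st66 livers, at 5.55 and 6.11 CPM, stood just above the highest st54 liver at 4.81. In collagen VI, col6a1 was 3.01-fold higher (adjusted p = 0.00173) and col6a2 2.89-fold (adjusted p = 0.00509), while col6a3 did not pass (log2 0.99 ± 0.35 SE, adjusted p = 0.0879). Outside these families col12a1 was 8.68-fold higher (adjusted p = 0.0109; 21.2-fold without st54 replicate 3 and 5.56-fold without st66 replicate 1), col18a1 4.04-fold (adjusted p = 0.00392) and col16a1 3.57-fold (adjusted p = 0.0270). The anchoring fibril chain col7a1 was the 1 call made at st66 and missed at st61 (adjusted p = 0.0256 and 0.0601), from 2, 0 and 1 counts at st54, 3, 11 and 10 at st61, and 19, 1 and 8 at st66. It did not pass without st54 replicate 1 or 2 (adjusted p = 0.0577 and 0.0922).

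Between stages 61 and 66 the levels of most chains moved down, and few calls resulted. Of the 31 chains, 26 had a lower fitted level at st66, with a median log2 change of -0.69 against 0.05 for all genes. Only col6a2 and col6a5 were called lower, 2 of 31 against 4.28% of all genes. None was called higher (0 calls with edgeR, 0 at an unadjusted p under 0.05, 0 with DESeq2), where 5.75% of all genes were. By plain CPM, 0 of the 31 chains had all st66 livers above the st61 livers (10.4% of all genes) and 5 had them all below (10.7%). The gene col6a2 fell 2.13-fold (log2 -1.09 ± 0.28 SE, adjusted p = 0.0340), and every st66 liver was below every st61 liver. The call of col6a2 held in 9 of 21 alternative fits and that of col6a5 in 7 of 19. Neither was made in the fit to the 2 groups, or when any 1 T3 replicate was left out, although T3 is not in this comparison. The count of lower chains varied with the libraries and the method of the fit. Without st66 replicate 1 it was 11, sharing 1 with the 2 above, and without st54 replicate 3 it was 7. With DESeq2 it was 8, and with the replicate number as a block 0. The cause of this variation was not tested.

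After 18 h of T3, collagen transcripts stayed near their stage 54 levels or below. Of the 31 tested chains none was called higher than at st54 (0 with edgeR, 0 at an unadjusted p under 0.05, 0 with DESeq2), where 9.47% of all genes were. Lower calls numbered 2 (col9a2 and col14a1), against 7.55% of all genes. By plain CPM the T3 livers were all above the st54 livers in 1 of the 31 chains (42.7% of all genes) and all below in 2 (11.4%). The median log2 change was -0.19, and that of all genes -0.05. The T3 libraries have scaling factors (trimmed mean of M-values, TMM) of 1.19 to 1.25 in the test, so their plain CPM lie above the scaled levels by these factors, and folds computed from the printed CPM come out higher than the fitted ones.

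The gene col9a2 (chromosome 2, 88004646 to 88054340), a chain of the collagen IX that coats cartilage fibrils, stood at 15.9, 7.79 and 14.3 CPM at st54 and at 3.67, 3.12 and 3.18 in T3. All T3 livers lay below all st54 livers, 4.67-fold lower (log2 -2.22 ± 0.36 SE, adjusted p = 0.00332). Its partner chains were scarce: col9a3 stayed below a group mean of 1 CPM and was not called, and col9a1 was not tested. The gene col14a1 (chromosome 6, 138467720 to 138568517) stood at 16.0, 15.7 and 14.6 CPM in T3, below 26.6, 18.8 and 45.9 at st54, and fell 2.43-fold (log2 -1.28 ± 0.32 SE, adjusted p = 0.0217). With the T3 libraries summed into 1, neither passed (adjusted p = 0.218 for col9a2 and 0.412 for col14a1). For col14a1 leaving out any 1 T3 replicate also ended the call, at an adjusted p of 0.0786 to 0.0850.

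The major chains in T3 lay within or near the st54 range. For collagen I the fitted log2 change was -1.14 ± 0.46 (SE) for col1a1 (adjusted p = 0.110) and -1.13 ± 0.40 for col1a2 (adjusted p = 0.0734). DESeq2 called both lower, as well as col5a3, col6a1, col9a2 and col14a1, 6 in all. For collagen IV the changes were -0.05 ± 0.58 (SE) for col4a1, 0.10 ± 0.58 for col4a2, 0.03 ± 0.40 for col4a5 and 0.14 ± 0.38 for col4a6, none with an adjusted p under 0.826. By plain CPM col18a1 was the exception in rank order, with T3 livers at 22.7 to 22.9 CPM just above the highest st54 liver at 22.0. The TMM factors, 1.19 to 1.25 in T3 and 0.977 to 0.997 at st54, outweigh this margin. On the scaled levels the T3 livers therefore lay below that st54 liver. The fitted change of col18a1 was 0.38 ± 0.35 (SE, adjusted p = 0.474).

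Set against the climax livers, the T3 livers had low collagen levels throughout. Here 25 of 31 chains were lower, against 16.6% of all genes. None was higher (0 with edgeR, 0 at an unadjusted p under 0.05, 0 with DESeq2), where 16.6% of all genes were. By plain CPM, 25 of the 31 had every T3 liver below every st61 liver, against 18.9% of all genes, and 1 (col13a1) had the reverse, against 52.7%. The TMM factors were 1.19 to 1.25 in T3 and 0.923 to 1.001 at st61. Plain CPM in T3 therefore lie high against st61 for all genes, the chains included, and these shares carry that offset. All 20 chains that had risen at st61 were among the 25 called. The folds were 10.6 for col1a1 (adjusted p = 0.000605), 6.50 for col3a1 (adjusted p = 0.000113), 13.0 for col4a1 (adjusted p = 0.000937), 7.73 for col6a1 (adjusted p = 2.9e-05) and 19.1 for col6a6 (adjusted p = 0.000549), in each case without overlap. The other 5 lower chains were col5a3, col7a1, col9a2, col11a2 and col28a1. Of these only col9a2 was called whichever 1 library was left out. The genes col5a3 and col11a2 did not pass without st61 replicate 3 (adjusted p = 0.0611 and 0.393), and col7a1 not without T3 replicate 1 (adjusted p = 0.0733). Without T3 replicate 1 or 3, col5a3, col11a2 and col28a1 were not called. Without T3 replicate 3, or st61 replicate 2 or 3, col7a1 and col28a1 were not called, nor was col28a1 without T3 replicate 2. With the T3 libraries summed into 1, 6 were called (col1a2, col3a1, col5a2, col6a1, col6a2 and col9a2). T3 and climax livers differ both in stage and in treatment, and these cannot be told apart here. The comparisons of st61 with st54 and of T3 with st61 share the st61 livers.

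Summed over all chains, the level was highest at st61. All 40 chains together reached 695, 389 and 853 CPM at st54, 2148, 3869 and 2419 at st61, 2385, 1146 and 1876 at st66, and 549, 516 and 499 in T3. The st61 and st66 livers each lay above every st54 and T3 liver. The mean at st61 was 4.36 times that at st54 for all chains, 4.41 times for fibrillar chains, 5.32 times for collagen IV, 5.05 times for collagen VI and 2.76 times for the others. At st66 the mean was 2.79 times that at st54 for all chains, 2.95 times for fibrillar chains, 2.96 times for collagen IV and 2.50 times for collagen VI, and 2.04 times for the others, whose livers overlapped. Where the livers did not overlap the exact two-sided permutation test gave p = 0.1, the smallest that 3 against 3 livers allows, and an adjusted p of 0.179 over 25 comparisons of totals. Comparisons with T3 take its libraries as separate livers, and whether their RNA was pooled is not stated.

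**Figure D3:**
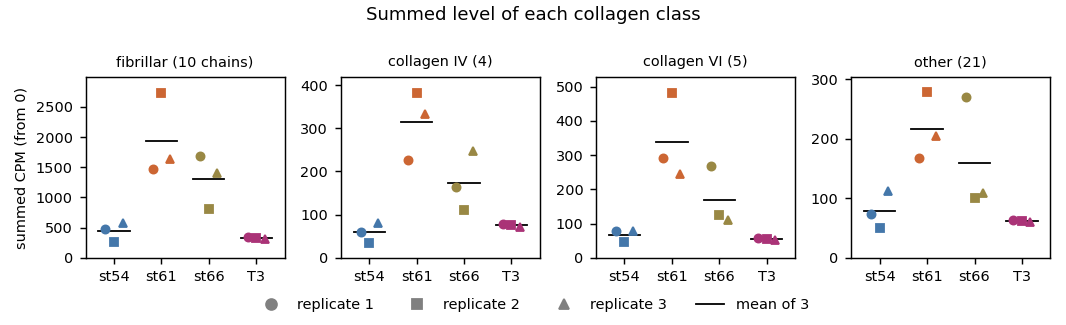
Summed CPM of each collagen class in every library, on linear axes from 0, with bars for the mean of 3. In all 4 classes the st61 livers lie above the st54 and T3 livers, and the fibrillar sum is the highest of the 4 in every library.

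The makeup of the collagen total moved less than its size. Fibrillar chains made up 68.0%, 68.8%, 72.1% and 63.0% of collagen CPM on average at st54, st61, st66 and in T3. Collagen IV made up 9.08%, 11.4%, 9.92% and 14.5%, and the other chains 12.2%, 7.81%, 8.65% and 11.9%. In T3 the fibrillar share was below and the collagen IV share above that of every st54 liver (exact two-sided permutation test, p = 0.1 for each, adjusted p = 0.25 over 20 comparisons of shares). The test takes the T3 libraries as separate livers. Whether their RNA was pooled is not stated, and with pooled RNA this p would not apply.

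Chains that assemble together kept a steadier ratio than their levels. Whether other genes that rise together do the same was not tested. Per kilobase of exon, col1a1 stood at 1.06 to 1.57 times col1a2 over the 12 livers, col5a1 at 0.915 to 1.28 times col5a2, and col4a5 at 1.64 to 2.01 times col4a6. The ratio of col4a1 to col4a2 ran from 1.14 to 2.11, and that of the collagen VI chains col6a3 to col6a1 from 0.153 to 0.385. In contrast the ratio of col4a1 to col4a5, which belong to different gene pairs, was 0.0720, 0.0813 and 0.120 at st54, 0.349, 0.318 and 0.107 at st61, 0.535, 0.0973 and 0.0469 at st66, and 0.0817, 0.0838 and 0.0971 in T3. It was high in st61 replicates 1 and 2 and in st66 replicate 1. For col6a6 to col6a3, alternative long chains of collagen VI, the ratio ran from 0.0632 to 0.431.

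Within collagen VI the ratio of col6a1 to col6a2 was 1.03, 1.32 and 1.04 at st54, 0.795, 0.851 and 0.837 at st61, 1.07, 1.23 and 1.16 at st66, and 0.910, 0.903 and 0.909 in T3. The st61 livers were below all others, without overlap (exact two-sided permutation test, p = 0.1 against st54 and against st66). The ratio of col3a1 to col1a1 was 1.04, 0.975 and 0.588 at st61 and 1.58, 1.44 and 1.08 at st66, again apart at the smallest p of 0.1. The st54 livers scattered over both, at 1.10, 2.40 and 0.474. Over the 45 comparisons of ratios the smallest adjusted p was 0.346, so these separations are descriptions.

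**Figure D4:**
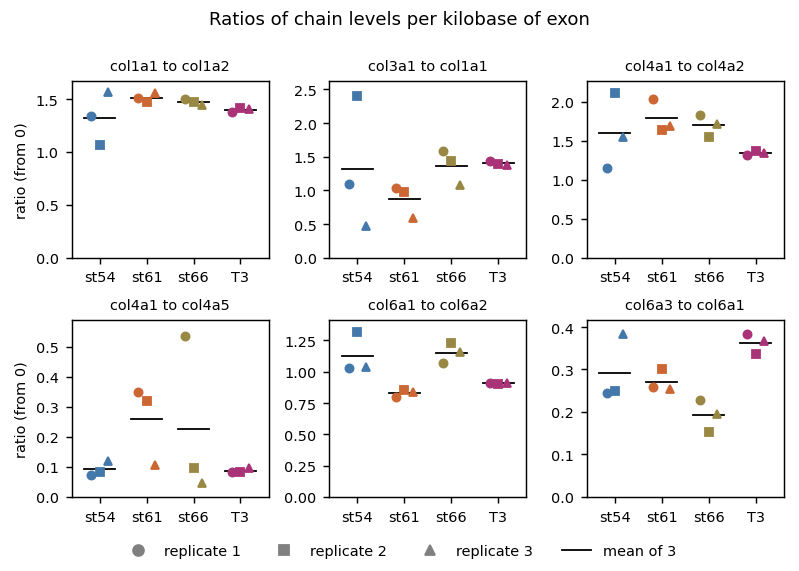
Ratio of the levels per kilobase of 2 chains in every library, on linear axes from 0, with bars for the mean of 3. The ratio of col1a1 to col1a2 stays between 1.06 and 1.57, and the ratio of col6a1 to col6a2 is lowest in the 3 st61 livers.

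Genes that fold and modify collagen inside the cell also moved at st61. Their list, and those of secreted genes, receptors and cell type markers below, were chosen with earlier results of these data known. The shares of these lists beside those of all genes are therefore descriptions. Of 19 tested genes of a list of 21 processing genes, 8 rose at st61, against 10.0% of all genes, and none fell (0 calls with edgeR, 1 at an unadjusted p under 0.05, 0 with DESeq2), against 8.85%. The collagen chaperone serpinh1 (HSP47) stood at 5.92, 3.74 and 5.21 CPM at st54, 18.3, 27.3 and 18.2 at st61, 16.2, 8.70 and 9.76 at st66, and 7.51, 6.77 and 6.18 in T3. The gene crtap, a partner of prolyl 3-hydroxylase, stood at 3.35, 3.47 and 3.44 CPM at st54, 16.5, 18.2 and 16.8 at st61, 9.89, 4.92 and 4.82 at st66, and 6.25, 7.12 and 6.18 in T3. Both rose at st61 without overlap, by 4.42-fold for serpinh1 (adjusted p = 5.55e-05) and 5.17-fold for crtap (adjusted p = 7.5e-06). The family member p3h3 rose 4.26-fold (adjusted p = 0.000312).

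In T3, 3 of the 19 processing genes rose (crtap, mia3 and plod3), against 9.47% of all genes, and none fell (0 calls with edgeR, 1 at an unadjusted p under 0.05, 1 with DESeq2), against 7.55%. The procollagen export factor mia3 stood at 50.4, 52.9 and 88.1 CPM at st54, 56.0, 59.0 and 64.7 at st61, 109.9, 33.9 and 27.5 at st66, and 172, 171 and 161 in T3. Every T3 liver was above every other liver, 2.14-fold over st54 (adjusted p = 0.0457) and 2.21-fold over st61 (adjusted p = 0.0229, and 0.214 with the T3 libraries summed into 1). Without any 1 T3 replicate, or without st61 replicate 1 or 2, the latter did not pass (adjusted p = 0.0568 to 0.0753). The lysyl hydroxylase plod3 rose 1.78-fold (adjusted p = 0.0433) and crtap 1.54-fold (adjusted p = 0.0294). Leaving out any 1 T3 replicate ended the calls of mia3, plod3 and crtap against st54. None of these 3 genes passed against st54 with the T3 libraries summed into 1 (adjusted p = 0.423 for mia3, 0.427 for plod3 and 0.395 for crtap).

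Among genes that act on collagen after secretion, 8 of 13 tested rose at st61, against 10.0% of all genes, and none fell (0 calls with edgeR, 0 at an unadjusted p under 0.05, 0 with DESeq2), against 8.85%. The matrix protein sparc, which binds collagen, stood at 135, 99.6 and 163 CPM at st54, 416, 471 and 340.3 at st61, 292, 224 and 268 at st66, and 111, 109 and 108 in T3, a rise of 3.18-fold at st61 (adjusted p = 0.000312). The lysyl oxidase loxl3 stood at 1.07, 0.204 and 0.641 CPM at st54 and at 10.3, 14.8 and 4.88 at st61, 16.3-fold higher (adjusted p = 0.00056; 27.1-fold without st54 replicate 1), and the procollagen N-proteinase adamts2 rose 4.99-fold (adjusted p = 0.00385). In both, st61 and st54 were apart.

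In T3, 1 of the 13 secreted genes rose and 1 fell, close to the shares of all genes (9.47% and 7.55%). The lysyl oxidase gene loxl1 stood at 71.6, 67.4 and 21.7 CPM at st54, 63.2, 50.5 and 71.7 at st61, 49.4, 30.9 and 62.8 at st66, and 17.9, 17.0 and 16.8 in T3, where it was below all other livers and 3.83-fold below st54 (adjusted p = 0.00979). Its family member loxl2 stood at 14.8, 19.0 and 15.0 CPM at st54 and at 39.2, 37.9 and 35.8 in T3, 1.87-fold higher (adjusted p = 0.0476). Leaving out any 1 T3 replicate ended the call of loxl2 but not that of loxl1. With the T3 libraries summed into 1, neither passed (adjusted p = 0.336 for loxl1 and 0.435 for loxl2).

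Of 7 tested collagen receptors, 3 rose and 1 fell at st61, where 10.0% of all genes rose and 8.85% fell. The integrin β1 gene itgb1, shared by all collagen-binding integrins, stood at 137, 149.5 and 123 CPM at st54 and 243, 348 and 219.9 at st61, a rise of 2.03-fold (adjusted p = 0.0176). The receptor tyrosine kinase gene ddr1 rose 2.30-fold (adjusted p = 0.00892) and the uptake receptor gene mrc2 2.22-fold (adjusted p = 0.0414), the latter call holding in 7 of 20 alternative fits. The gene that fell was itga11, an α subunit for fibrillar collagen, from 51.9, 30.8 and 38.3 CPM at st54 to 12.7, 12.9 and 17.3 at st61, 2.73-fold (adjusted p = 0.0112).

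In T3, 2 of the 7 receptor genes rose and 2 fell (9.47% and 7.55% of all genes), and the T3 livers were far above the others in itga2, the α subunit of another collagen-binding integrin. Its levels were 13.5, 12.6 and 13.2 CPM at st54, 11.1, 14.6 and 9.28 at st61, 2.68, 2.77 and 2.12 at st66, and 45.2, 43.7 and 42.5 in T3. The T3 livers were above all others, 2.71-fold over st54 (adjusted p = 0.000809, and 0.0724 with the T3 libraries summed into 1), and the st66 livers were below all others, 4.68-fold under st54 (adjusted p = 4.7e-05). In T3 itgb1 also rose (1.78-fold, adjusted p = 0.0475), and itga11 and mrc2 fell (2.07-fold and 2.42-fold, adjusted p = 0.0491 and 0.0344). Leaving out any 1 T3 replicate ended each of these 3 calls. With the T3 libraries summed into 1, these 3 did not pass (adjusted p = 0.449 for itgb1, 0.515 for itga11 and 0.455 for mrc2).

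**Figure D5:**
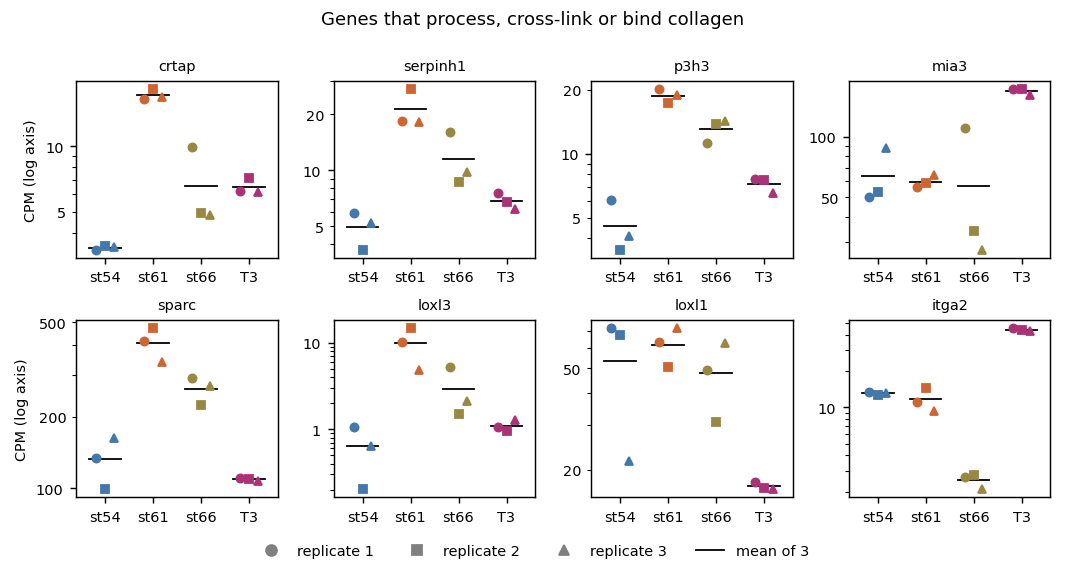
Level of 8 genes that process, cross-link or bind collagen in each library, in CPM on log axes, with bars for the mean of 3. The genes crtap, serpinh1, p3h3, sparc and loxl3 are highest at st61, while mia3 and itga2 are highest and loxl1 lowest in T3.

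Some marker genes of other liver cell types were called higher at st61, against 10.0% of all genes. Of 14 stellate cell and fibroblast markers in the table, 6 rose at st61 (tagln, lrat, reln, dpt, fbn1 and hand2). The marker thy1 went the other way without passing (log2 -5.65, adjusted p = 0.0708). It stood at 0, 0 and 12.02 CPM at st54 and 0.105, 0.0475 and 0.0536 at st61. In T3 thy1 stood at 7.64, 9.20 and 8.39 CPM, and edgeR called it higher than at st61 (log2 6.49, adjusted p = 0.0254). DESeq2 called 0 of the 14 higher in that comparison. All 14 summed to 176 to 189.6 CPM at st54, 293 to 466 at st61, 112 to 365 at st66 and 235 to 249 in T3. The largest part was reln, with means of 64.9 CPM at st54, 171 at st61, 65.3 at st66 and 151 in T3. In T3 reln was not called against st54 (edgeR, adjusted p = 0.116). The general fibroblast and stellate genes pdgfra (adjusted p = 0.701) and pdgfrb (adjusted p = 0.597) did not pass at st61. In T3, tagln and acta2 were called lower than at st54 (adjusted p = 0.00486 and 0.0349), and neither passed with the T3 libraries summed into 1 (adjusted p = 0.245 and 0.467). Endothelial markers summed to 566 to 1084 CPM at st54, 1194 to 2109 at st61, 172 to 862 at st66 and 1610.45 to 1686 in T3, with 2 of 7 called higher at st61. Most of that sum was stab2, with means of 491 CPM at st54, 1248 at st61, 254 at st66 and 1332 in T3. Against st54, stab2 was called neither at st61 nor in T3 (edgeR, adjusted p = 0.118 and 0.174). Bile duct markers summed to 163 to 348 CPM at st54, 719.8 to 1184 at st61, 581 to 959.9 at st66 and 249 to 267 in T3, and 1 of 4 was called higher at st61. That was krt19, which carried the sum (a mean of 127 CPM at st54 and 783 at st61), while epcam averaged 124.7 and 65.0 CPM and sox9 12.04 and 11.6. The part of these cell types in the collagen levels was not tested.

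Markers of tissue near the liver were also read. The 10 cartilage markers summed to 10.6 to 37.2 CPM at st54, 4.08 to 29.1 at st61, 13.9 to 55.0 at st66 and 10.2 to 11.1 in T3, and 7 of them stayed under 1 CPM in every library. The most abundant were sox9, also a bile duct marker, and ucma. In st66 replicate 3, cnmd stood at 2.59 CPM, matn1 at 0.940, hapln1 at 0.823, acan at 0.705 and epyc at 0.588. Each of these, and sox9 at 35.5, was highest in that library, while ucma, matn3, comp and snorc were not. The source of these reads was not tested. The 6 bone markers summed to 3.64 to 42.5 CPM over all livers, and 2 were at 0 in each. Skin markers, 3 in the table, summed to 12.3 to 50.2 CPM. Skeletal muscle markers summed to 2.02 to 30.4 CPM outside st66 replicate 3. Exocrine pancreas markers summed to 211 to 1595 CPM at st54, 157 to 1896 at st61, 88.4 to 401 at st66 and 969 to 975 in T3. The library with the high muscle sum, st66 replicate 3, held 5 of the few col21a1 reads and 12 of the col9a1 reads, while T3 replicates 1 and 2 held 13 and 14 of the latter.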

How the data were processed

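RNA of 12 *Xenopus tropicalis* livers was sequenced on Illumina libraries made from 1 µg of RNA taken up on RNeasy columns, per the labels' protocols. The authors deposited raw read counts per gene, with the coordinates and exon length of each gene, which entered the tests unchanged. The submitters' processing notes name cutadapt 3.4 (a trimmer) and STAR 2.7.8a (an aligner). For build, annotation, strand setting and duplicates, what was done is not given in the sources. Coordinates are the table's own, and those of all 40 members equal the UCB_Xtro_10.0 entries of a RefSeq gene table.

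Lines of 2 genes, broken over 6 lines, were left out. A chain's CPM is its count over the column sum, times 1000000, and levels per kilobase divide CPM by the deposited exon length. Tests used edgeR 4.0.16 (limma 3.58.1, R 4.3.3): TMM factors, filterByExpr by group (15102 genes kept), and a robust quasi-likelihood fit to all 12 libraries with 8 residual degrees of freedom. SE is the size of the log2 change over the square root of F, and folds are edgeR's. DESeq2 1.42.0, other scalings and filters, thinning, left-out libraries and summed T3 libraries were alternatives. Class totals, shares and chain ratios were compared by exact permutation. Of the 9 chain ratios, those of col1a1 to col1a2, col4a1 to col4a2, col6a1 to col6a2 and col6a3 to col6a1 were planned. The others were added later. The fit was tested on simulated data (14907 genes, 200 changed, 1 false call). Chains, classes, pathway and marker lists were chosen with earlier results of these data known. All fibrillar, collagen IV and collagen VI chains with a group mean of at least 1 CPM are described by library. Other chains are described when called, some of them by counts, by means or in only some groups. From each pathway list the 3 called genes of smallest adjusted p at st61 and in T3 are described. Per the labels, replicates are different tadpoles; the sources do not say whether RNA was pooled. The symbols col4a3, col4a4, col6a4, col11a1 and col23a1 were not among the 40 that the rule found, so they were not analysed here.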

Additional observations from a re-analysis of the deposited data

How the results depend on the processing

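No called result changed direction under any alternative, and class totals and chain ratios moved by less than the spread between livers. Chains higher at st61 than at st54 numbered 16 to 22 over the alternatives (20 to 21 with 1 library left out), against 20. Chains higher at st66 than at st54 numbered 15, but 3 in a fit to the 2 groups and 5 with the T3 libraries summed; with 1 library left out they numbered 6 to 16, and with st66 replicate 1 alone 11. Lower chains there numbered 0 to 1 with 1 library left out. Chains lower at st66 than at st61 numbered 2, against 4 with RLE factors, 8 with DESeq2, 1 with the stricter filter of 1 CPM in 3 libraries, and 0 with the replicate block, in the fit to 2 groups, with T3 summed, with thinned libraries and with st66 replicate 1 alone; leaving out 1 library gave 0 to 11. Chains lower in T3 than at st54 numbered 2, against 6 with DESeq2, 4 in the fit to 2 groups, 3 with thinned libraries and 0 with T3 summed, and 1 to 4 with 1 library left out. Chains lower in T3 than at st61 numbered 25, against 6 with T3 summed, and 21 to 28 with 1 library left out. The cause of these shifts was not tested, and some of these fits also held fewer libraries. Of 64 calls of single chains, 28 held under every alternative.

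Whether replicate numbers pair the livers is not stated in the sources. Correlations of deviations between same-numbered livers ran from -0.110 to 0.158, and so few livers cannot exclude a pairing. With the replicate number as a block, 20, 14, 0, 3 and 25 chains were called in the 5 comparisons, in place of 20, 15, 2, 2 and 25. A floor of 3 counts per library was set, and levels below it were not taken as resolved at this depth. The calls of col7a1 and col8a2 against st54 rest on such levels at st54. Those of col26a1 (4, 1 and 1 counts at st54) and col6a5 (11, 2 and 1) rest on them in part.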
